A study of Mus musculus with 6 samples.

Results

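The SR and hnRNP genes encode the main families of proteins that bind pre-mRNA and set which exons are kept. They were followed here in mouse embryonic fibroblasts as the cells aged in culture. The genes were chosen by symbol and not by their values: Srsf followed by a number, Hnrnp with no further suffix such as that of a pseudogene, Tra2a, Tra2b and Ptbp1 to Ptbp3. This gave 36 of the 21988 genes of the deposited table, of which 11 were SR genes, 20 hnRNP genes, 2 Tra2 genes and 3 PTB genes. All 36 passed the filter on low values that is given below.

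The cells were primary fibroblasts of C57BL/6 embryos taken at 13.5 days. The labels name no engineered allele and no drug, and the groups differ by the number of population doublings (PD) reached through serial passage, which was 2, 8 or 14 (PD2, PD8, PD14). Each group had 1 rRNA-depleted, strand-specific library (replicate 1) and 1 poly(A)-selected library (replicate 2), so replicate and library method cannot be told apart. Whether the libraries came from separate cultures is not given in the labels, and p-values therefore measure only the spread among these 6 libraries. With bulk RNA, fewer cells of a type and less RNA per cell cannot be told apart.

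SR proteins bind exons through RNA recognition motifs and recruit the spliceosome through a domain rich in arginine and serine, which SR protein kinases phosphorylate. The hnRNP proteins coat nascent transcripts, and many of them oppose SR proteins by promoting exon skipping. Tra2 proteins are SR-like activators of splicing, and PTB proteins bind pyrimidine-rich tracts and mostly repress exons. Many of these genes limit their own protein by splicing in a poison exon that sends the transcript to nonsense-mediated decay (NMD), and in human cells lower levels of several splicing factors have been described in senescence, the lasting growth arrest of ageing cultures.

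Values are TPM, an abundance per transcript length scaled within a library, so levels of different genes can be compared on the TPM scale. Summed TPM were 937217 to 950531 after rRNA depletion and 1000000 in each of the poly(A) libraries. The table gives no read numbers, and the depth behind each value is unknown. Changes are differences of log2(TPM + 1), fitted over the 6 libraries with limma and a term for library method, and are given ± standard error (SE) with n = 2 libraries a group. The added 1 understates the changes of low genes. The test was run on the 13332 genes that reached 1 TPM in at least 2 of the 6 libraries, and a gene was said to have risen or fallen where the Benjamini-Hochberg adjusted p over these genes was under 0.05. The fibroblast markers were present in every library, with 10 of 10 genes tested and a summed TPM of 17536 to 34735.

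Between PD14 and PD2, the hnRNP genes Hnrnpa1, Hnrnpa3 and Hnrnpf fell. Their log2 changes were -1.32 ± 0.193 for Hnrnpa1, -0.92 ± 0.127 for Hnrnpa3 and -1.05 ± 0.168 for Hnrnpf, with adjusted p-values of 0.0257, 0.0239 and 0.0298 in limma's test. No SR, Tra2 or PTB gene passed the test, and no gene of the 36 rose. Of the 36 genes, 3 passed as lower (8.33%), against 4.77% of all genes tested, and 0 passed as higher, against 6.41% of all genes. In either direction 11.2% of all genes passed. With 3 calls, the share of the 36 genes is too uncertain to be set apart from that background.

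These calls depended on the libraries used. Without the rRNA-depleted PD2 library 10 of them passed as lower, adding Hnrnph1, Hnrnpm, Ptbp1, Srsf2, Srsf3, Srsf7 and Tra2b, while 13.6% of all genes passed in that fit. Without the poly(A) PD2 library 3 passed, and 9.43% of all genes did. Without either PD8 library or either PD14 library 0 of the 36 genes passed, and at most 0.19% of all genes did, from 0% to 0.19% over the 4 fits. The fitted change of each of Hnrnpa1, Hnrnpa3 and Hnrnpf stayed at or below -0.80 in all 6 cases. Without the term for library method 0 of the 36 genes and 0 of all genes passed, with adjusted p-values of 0.290 for Hnrnpa1, 0.271 for Hnrnpa3 and 0.406 for Hnrnpf in limma's test.

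The fitted change was negative for 32 of the 36 genes, against 45.1% of all genes tested. The median change of the 36 genes was -0.44, against 0.06 for all genes tested. At an unadjusted p under 0.05 there were 18 of the 36 genes, all lower, against 14.1% of all genes. PD14 lay below PD2 within both library methods for 26 of the 36 genes (30.8% of all genes tested) and above PD2 within both for 3 (38.8% of all genes). The remaining 7 moved in opposite directions in the 2 methods. Both PD14 libraries lay below both PD2 libraries for 16 of the 36 genes (15.8% of all genes) and above both for 0 (22.4% of all genes).

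**Figure D1:**
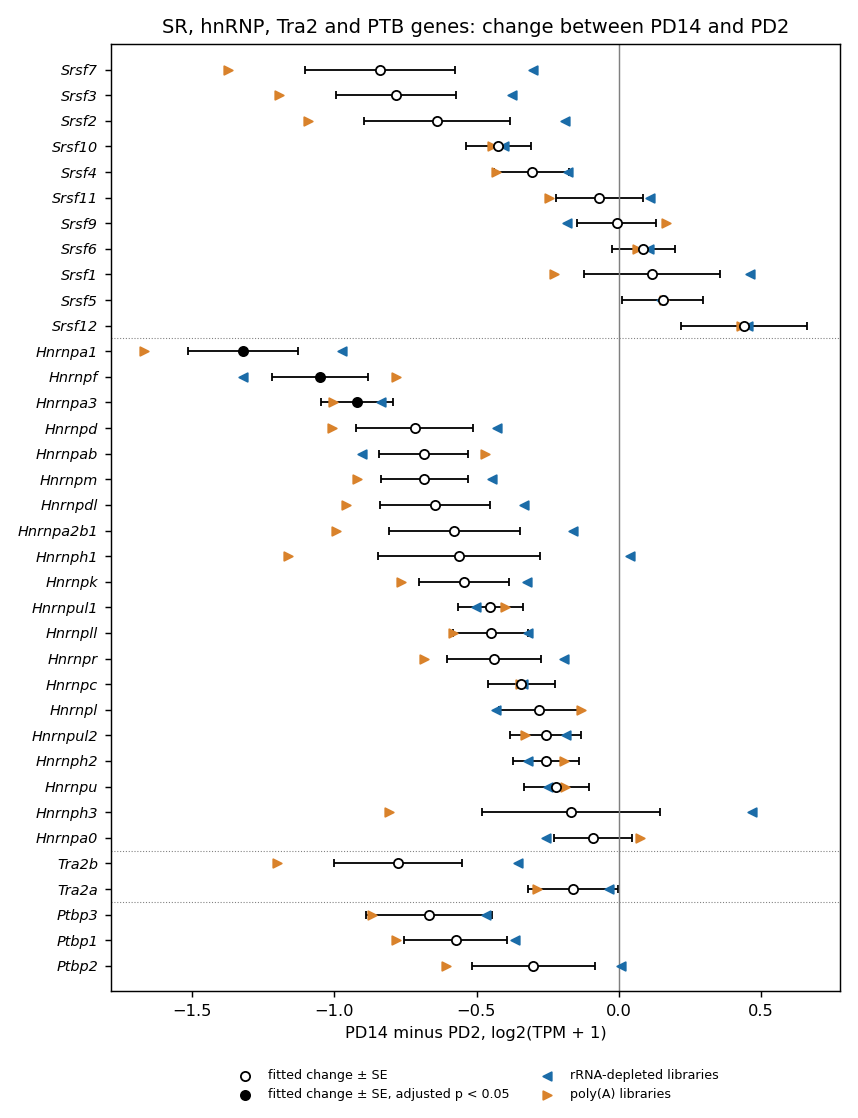
Change between PD14 and PD2 in log2(TPM + 1) for each of the 36 genes (rows, ordered within the SR, hnRNP, Tra2 and PTB groups). Circles are the fitted change ± SE, filled where the adjusted p was under 0.05, and triangles are the difference withafter rRNA depletion and withafter poly(A) selection. The 20 hnRNP circles all lie left of 0, the 3 filled ones belong to Hnrnpa1, Hnrnpf and Hnrnpa3, and 4 of the 11 SR circles lie right of 0.

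The families differed in how their values lay, a difference for which no test was run. All 20 hnRNP genes had a negative fitted change between PD14 and PD2, with a median of -0.50. Of the 11 SR genes, 7 were negative and 4 positive in the fit, with a median of -0.07, against 0.06 for all genes. Within methods the median of the SR genes was -0.18 after rRNA depletion and -0.25 after poly(A) selection, against 0.06 for all genes in either. The 5 Tra2 and PTB genes were all negative, with a median of -0.57.

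Summed over the 20 hnRNP genes, the level was 6126, 4477 and 4395 TPM at PD2, PD8 and PD14 after rRNA depletion. In the poly(A) libraries it was 5909, 4067 and 3540 TPM. PD14 thus stood at 71.7% of PD2 after rRNA depletion and at 59.9% after poly(A) selection. The 11 SR genes summed to 1613, 1548 and 1567 TPM at the 3 stages after rRNA depletion. In the poly(A) libraries they summed to 1621, 1399 and 1235 TPM. PD14 stood at 97.2% of PD2 for the SR genes after rRNA depletion and at 76.2% after poly(A) selection, so their summed level was nearly level in one method and lower in the other. Without Hnrnpa1, Hnrnpa3 and Hnrnpf, the other 33 genes summed at PD14 to 84.4% of PD2 after rRNA depletion and to 68.4% after poly(A) selection.

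The hnRNP A genes encode abundant proteins that bind UAGG-like elements and promote exon skipping. Hnrnpa1 (ENSMUSG00000046434.16), the best known exon-skipping factor of the group, lies at chr15:103240432-103246692 on the + strand of mm10. It had 787, 455 and 401 TPM at PD2, PD8 and PD14 after rRNA depletion. In the poly(A) libraries it had 771, 353 and 241 TPM. Every later library was below every earlier one within its method, and the PD2 values of the 2 methods were close while those at PD14 were not, at 50.9% of PD2 after rRNA depletion and 31.3% after poly(A) selection.

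Hnrnpa3, which encodes a close relative of hnRNP A1, lies at chr2:75659261-75669407 on the + strand. It had 270, 163 and 151 TPM at PD2, PD8 and PD14 after rRNA depletion and 280, 185 and 139 TPM after poly(A) selection. The 2 methods gave nearly the same course, with PD14 at 55.9% of PD2 after rRNA depletion and 49.6% after poly(A) selection.

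Hnrnpa2b1, whose product reads methylated adenosines in RNA and was the highest of the 36 genes by mean TPM, did not pass the test, at -0.58 ± 0.231 with an adjusted p of 0.161 in limma's test. It had 921, 732 and 823 TPM at the 3 stages after rRNA depletion and 719, 517 and 360 TPM after poly(A) selection. The PD14 values of the 2 methods lay far apart, at 89.4% of PD2 after rRNA depletion and 50.1% after poly(A) selection. The ratio of Hnrnpa1 to Hnrnpa2b1 on the TPM scale was 0.855, 0.621 and 0.487 at PD2, PD8 and PD14 after rRNA depletion and 1.07, 0.682 and 0.670 after poly(A) selection. In both methods the ratio was lower at PD14 than at PD2. Hnrnpa0, the single-exon member of the group, had a fitted change of -0.09 ± 0.137 and TPM of 173 to 220 over the 6 libraries. Both its PD8 values lay below both PD2 values, and its PD14 values, at 184 and 206 TPM, overlapped both other stages.

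All 3 genes that fell have copies annotated as pseudogenes. In GENCODE M21, Hnrnpa3 has 35 pseudogene copies that match at least 50% of its coding sequence at 90% identity or more, Hnrnpa1 has 14 and Hnrnpf 6, the 3 highest numbers among the 36 genes. Of the 36 genes, 15 have at least 1 such copy. Of these copies the deposited table lists 2 for Hnrnpa3, 1 for Hnrnpa1 and 0 for Hnrnpf. How reads matching several copies were assigned is not given in the sources used here, so the single values of these genes are uncertain, and the part of the copies in the changes was not tested.

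The 250 bases upstream of the transcript start are shown for the 2 hnRNP A genes that fell, because both hold CCAAT boxes, and for Srsf5, the SR gene with the highest TPM, whose PD14 values were above PD2. CCAAT is the site of the factor NF-Y, common in promoters of cell cycle genes, and CCGGAAG is a site of ETS-family factors. The sequences are RefSeq's (GRCm38.p6, the mm10 assembly), 5′ to 3′, with matches in capitals on either strand, CCAAT in the first pair and CCGGAAG in the third.

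Hnrnpa1 chr15:103240147-103240396, + strand: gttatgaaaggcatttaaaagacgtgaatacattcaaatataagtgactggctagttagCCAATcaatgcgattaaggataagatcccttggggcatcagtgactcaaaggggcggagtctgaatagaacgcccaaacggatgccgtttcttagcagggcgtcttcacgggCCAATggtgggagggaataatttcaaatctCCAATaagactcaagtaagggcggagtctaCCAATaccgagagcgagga

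Hnrnpa3 chr2:75659009-75659258, + strand: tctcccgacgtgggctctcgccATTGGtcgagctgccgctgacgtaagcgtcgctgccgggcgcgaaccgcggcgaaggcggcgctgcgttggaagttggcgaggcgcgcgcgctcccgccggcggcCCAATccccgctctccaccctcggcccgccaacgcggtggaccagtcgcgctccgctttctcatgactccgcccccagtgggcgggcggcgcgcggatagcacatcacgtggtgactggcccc

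Srsf5 chr12:80945249-80945498, + strand: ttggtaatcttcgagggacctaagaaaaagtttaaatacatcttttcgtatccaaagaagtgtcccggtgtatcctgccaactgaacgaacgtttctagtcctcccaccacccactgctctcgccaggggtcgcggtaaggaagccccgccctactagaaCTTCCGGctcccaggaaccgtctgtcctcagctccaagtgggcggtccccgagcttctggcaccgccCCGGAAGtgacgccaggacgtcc

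In Hnrnpa1 the CCAAT boxes begin 191, 79, 49 and 19 bases upstream of the RefSeq start, and in Hnrnpa3 228 and 123 bases upstream. For both genes the RefSeq start lies before the GENCODE start given above, so distances from the latter are longer. Promoters were found for 33 of the 36 genes, 45 promoters in all. Of the 33 genes 18 held CCAAT, among them Hnrnpf, which fell, and the hnRNP A genes Hnrnpa0 and Hnrnpa2b1, which did not pass. CCGGAAG was held by 6 of the 33. These were Hnrnpf, which fell, and Hnrnpd, Srsf4, Srsf5, Srsf7 and Srsf11, which did not pass. Of these only Srsf5 had a positive fitted change between PD14 and PD2, so neither motif went with a direction of change. CCAAT (either strand) occurred in 22 of the 45 (48.9%), against 33.8% of all 32851 promoters of the same length, and GGGCGG, the GC box, in 36 (80%), against 32.7%. CCGGAAG occurred in 9 (20%), against 6.91%, and the TATA box letters TATAAA in 3 (6.67%), against 12.4%. CACGTG, an E-box, occurred in 4 (8.89%), against 6.02%, and TTTGAA, the core of the cell cycle element CHR, in 5 (11.1%), against 16%. The 32851 promoters were not limited to the genes tested here, while all 36 genes were tested, so the sets are unlike. Each motif was counted apart, so 1 promoter can count for several. A match is a description of the letters and not of binding, and several promoters belong to the same gene.

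The hnRNP F/H proteins bind runs of G and can promote or block exon inclusion depending on where they bind. Hnrnpf lies at chr6:117900324-117925622 on the + strand. It had 512, 240 and 204 TPM at PD2, PD8 and PD14 after rRNA depletion and 654, 333 and 380 TPM after poly(A) selection. Both PD8 and both PD14 libraries were below both PD2 libraries, and after poly(A) selection the value at PD14 was above that at PD8. Annotated exons of Hnrnpf overlap genes on the opposite strand over 806 bases, and whether the poly(A) libraries keep strand is not given in the labels.

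Hnrnph1, a close relative of Hnrnpf, moved in opposite directions in the 2 methods. It had 301, 250 and 310 TPM at the 3 stages after rRNA depletion and 344, 182 and 153 TPM after poly(A) selection. Its PD14 value was 103% of PD2 after rRNA depletion and 44.4% after poly(A) selection, and the fitted change of -0.56 ± 0.286 did not pass. Hnrnph3, a shorter relative, had the widest gap between methods of the 36 genes. It had 48.7, 45.6 and 67.8 TPM after rRNA depletion and 47.3, 33.4 and 26.6 TPM after poly(A) selection, a change between PD14 and PD2 of 0.47 after rRNA depletion and -0.81 after poly(A) selection. Hnrnph2, an X-linked gene, ranged only from 96.2 to 122 TPM, with a fitted change of -0.26 ± 0.116.

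Among the other abundant hnRNP genes, Hnrnpab and Hnrnpm were the nearest to the threshold. Hnrnpab, which encodes a protein that binds single-stranded nucleic acids, had 642, 460 and 343 TPM at PD2, PD8 and PD14 after rRNA depletion. In the poly(A) libraries it had 689, 524 and 497 TPM. Both PD14 values were under both PD2 values, and the change of -0.69 ± 0.156 had an adjusted p of 0.0524 in limma's test. Its exons overlap Phykpl on the opposite strand over 809 bases. Hnrnpm, whose product binds GU-rich RNA and acts in mesenchymal splicing programmes, ranged from 111 to 210 TPM with a change of -0.68 ± 0.152 and an adjusted p of 0.0507 in limma's test. Its exons share 1169 bases with March2 on the same strand.

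Hnrnpk, which encodes a poly(C)-binding protein, had 513, 407 and 410 TPM after rRNA depletion and 503, 393 and 296 TPM after poly(A) selection at the 3 stages. Both methods gave nearly equal values at PD2 and at PD8 and parted at PD14, and the change of -0.54 ± 0.159 did not pass. Hnrnpu, the scaffold attachment factor that binds chromatin and RNA, had 374, 325 and 314 TPM after rRNA depletion and 259, 246 and 227 TPM after poly(A) selection. Its values were lower at each later stage within each method by small steps, with a change of -0.22 ± 0.115 that did not pass. Hnrnpc, whose product packages nascent RNA through U-rich tracts, had 161, 135 and 127 TPM after rRNA depletion and 217, 162 and 171 TPM after poly(A) selection, with a change of -0.34 ± 0.117 that did not pass.

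Hnrnpd encodes AUF1, which promotes decay of cytokine and other mRNAs with AU-rich elements. It had 75.8, 43.4 and 56.0 TPM at the 3 stages after rRNA depletion and 55.6, 35.2 and 27.2 TPM after poly(A) selection. The rRNA-depleted value at PD14 was a little above the poly(A) value at PD2, so the groups overlapped, and the change of -0.72 ± 0.208 had an adjusted p of 0.0851 in limma's test. Its relative Hnrnpdl ranged from 117 to 229 TPM with a change of -0.65 ± 0.195. Hnrnpul1, whose product acts in DNA end resection as well as in RNA processing, had 203, 159 and 143 TPM after rRNA depletion and 121, 105 and 91.7 TPM after poly(A) selection. It was lower at each later stage in each method, and the change of -0.45 ± 0.114 had an adjusted p of 0.0648 in limma's test.

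None of the remaining hnRNP genes passed. Hnrnpl and Hnrnpll, which bind CA-rich RNA and of which Hnrnpll is known for switching CD45 exons in T cells, had changes of -0.28 ± 0.139 and -0.45 ± 0.131. Hnrnpr ranged from 54.4 to 93.9 TPM with a change of -0.44 ± 0.164, and Hnrnpul2 from 88.4 to 111 TPM with a change of -0.26 ± 0.125. All of these had both later values below PD2 within each method.

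Among the SR genes the lowest fitted changes belonged to Srsf7 and Srsf3, which encode closely related small SR proteins that also serve as mRNA export adaptors. Srsf7 had 69.4, 57.5 and 56.1 TPM at PD2, PD8 and PD14 after rRNA depletion and 91.1, 48.7 and 34.5 TPM after poly(A) selection. Srsf3 had 195, 146 and 150 TPM after rRNA depletion and 210, 113 and 91.3 TPM after poly(A) selection. For both genes all PD8 and PD14 values were under both PD2 values, and PD14 was closer to PD2 after rRNA depletion. There it was 80.8% of PD2 for Srsf7 and 77.0% for Srsf3, against 37.9% for Srsf7 and 43.5% for Srsf3 after poly(A) selection. The changes of -0.84 ± 0.264 for Srsf7 and -0.78 ± 0.211 for Srsf3 did not pass, with adjusted p-values of 0.101 and 0.0736 in limma's test. The ratio of Srsf3 to Srsf7 stayed between 2.31 and 2.81 over the 6 libraries.

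Srsf2, the SC35 protein of nuclear speckles, had 206, 229 and 181 TPM after rRNA depletion and 318, 184 and 149 TPM after poly(A) selection. PD14 was 87.8% of PD2 after rRNA depletion and 46.7% after poly(A) selection, and the change of -0.64 ± 0.257 did not pass. Srsf10, whose product becomes a general splicing repressor when dephosphorylated in mitosis or after heat shock, had 166, 121 and 126 TPM after rRNA depletion and 106, 70.2 and 77.9 TPM after poly(A) selection. Its 2 methods ran in parallel, with a change of -0.42 ± 0.114 and an adjusted p of 0.0742 in limma's test.

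The SR genes with positive fitted changes were Srsf12, Srsf5, Srsf1 and Srsf6, and none of them passed. Srsf5, a classical SR protein gene, had 312, 338 and 347 TPM at the 3 stages after rRNA depletion and 265, 367 and 296 TPM after poly(A) selection. PD14 was above PD2 in both methods, at 111% and 112%, but the change of 0.16 ± 0.143 is close to its error. Srsf6, its close relative, had 190, 199 and 205 TPM after rRNA depletion and 164, 179 and 172 TPM after poly(A) selection, with a change of 0.09 ± 0.111.

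Srsf1, the founding SR protein and a regulator of many cell cycle and apoptosis exons, had 65.8, 76.3 and 91.0 TPM after rRNA depletion and 85.5, 51.5 and 72.9 TPM after poly(A) selection. The 2 methods disagreed in direction between PD14 and PD2, and the change was 0.12 ± 0.24. Srsf12, the lowest of the 36 genes, whose product can oppose other SR proteins, had 5.39, 6.23 and 7.76 TPM after rRNA depletion and 1.77, 2.07 and 2.73 TPM after poly(A) selection. It was higher at each later stage in each method, with a change of 0.44 ± 0.221 and an adjusted p of 0.235 in limma's test. The fifth SR gene in this order, Srsf9, had 91.2, 81.6 and 80.3 TPM after rRNA depletion and 92.3, 101 and 104 TPM after poly(A) selection, and a change of -0.01 ± 0.138. Srsf4, a relative of Srsf5 and Srsf6, and Srsf11, known for neuronal microexons, had changes of -0.31 ± 0.133 and -0.07 ± 0.153, over 45.1 to 62.1 and 190 to 269 TPM.

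**Figure D2:**
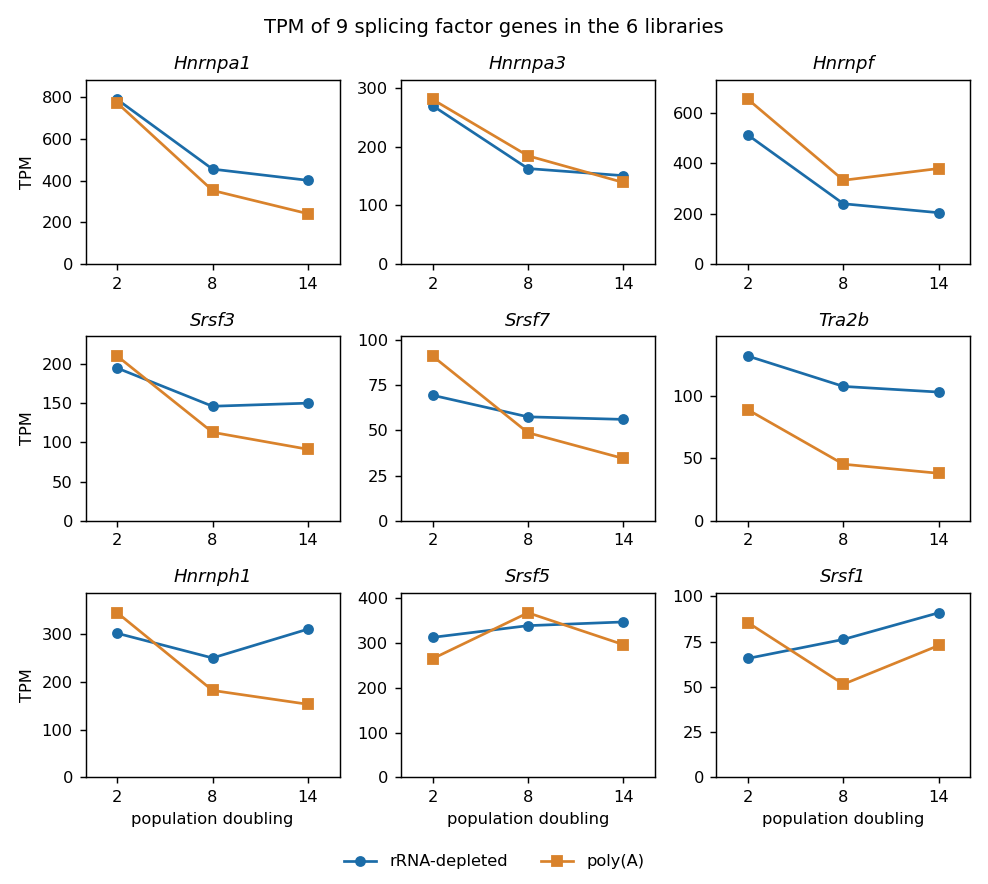
TPM (vertical axis, from 0) of 9 genes against population doubling in the 3 rRNA-depleted libraries (circles) and the 3 poly(A) libraries (squares), with 1 library a point. Hnrnpa1, Hnrnpa3 and Hnrnpf are lower at both later stages in both methods, Hnrnph1 and Srsf1 part between methods, and Srsf5 is higher at PD14 than at PD2 in both.

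Tra2b and Tra2a encode paralogous activators that bind GAA-rich exonic enhancers. Tra2b had 131, 107 and 103 TPM at PD2, PD8 and PD14 after rRNA depletion and 88.5, 45.2 and 37.9 TPM after poly(A) selection. Tra2a had 115, 100 and 112 TPM after rRNA depletion and 146, 155 and 120 TPM after poly(A) selection. Within each method Tra2b was lower at each later stage and Tra2a was not, and neither passed, with changes of -0.78 ± 0.226 and -0.16 ± 0.159. The ratio of Tra2b to Tra2a on the TPM scale was 1.142, 1.07 and 0.914 after rRNA depletion and 0.605, 0.292 and 0.317 after poly(A) selection, lower at PD14 than at PD2 in both.

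PTBP1 represses neuronal exons in non-neuronal cells, including an exon of Ptbp2 whose loss sends that transcript to decay. Ptbp1 had 143, 144 and 111 TPM at the 3 stages after rRNA depletion and 226, 144 and 131 TPM after poly(A) selection. Ptbp2, the neuronal paralog, had 90.0, 62.6 and 90.4 TPM after rRNA depletion and 34.9, 26.9 and 22.6 TPM after poly(A) selection. Ptbp3, known mainly from blood cells, had 75.5, 32.8 and 54.4 TPM after rRNA depletion and 35.5, 20.3 and 19.0 TPM after poly(A) selection. None of the 3 passed between PD14 and PD2, with changes of -0.57 ± 0.181 for Ptbp1, -0.30 ± 0.216 for Ptbp2 and -0.67 ± 0.221 for Ptbp3. The ratio of Ptbp2 to Ptbp1 ranged from 0.435 to 0.814 after rRNA depletion and from 0.155 to 0.186 after poly(A) selection, so it differed more between methods than between stages. Of 6 neural markers 2 were tested, and their summed TPM was 12.8 to 29.4 after rRNA depletion and 85.4 to 95.7 after poly(A) selection. Most of that was Tubb3, a tubulin gene, with 10.5 to 26.6 TPM after rRNA depletion and 82.6 to 91.8 TPM after poly(A) selection, and each of the other 5 was at or below 2.49 TPM. The part of neural cells in the PTB values was not tested. Ptbp1 exons overlap genes on the opposite strand over 983 bases.

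In the early step, between PD8 and PD2, 0 of the 36 genes passed, and 3 of all genes did (0.0225%). The largest early changes were those of Hnrnpf, at -1.03 ± 0.168 with an adjusted p of 0.0869 in limma's test, Ptbp3, at -0.98 ± 0.221, and Hnrnpa1, at -0.96 ± 0.193. At an unadjusted p under 0.05 there were 14 of the 36 genes, all lower, against 8.39% of all genes. The fitted change was negative for 32 of the 36 genes, against 45.9% of all genes, with a median of -0.35 against 0.04 for all genes. PD8 lay below PD2 in both methods for 27 of the 36 genes (31.7% of all genes), among them all 20 hnRNP genes. Both PD8 libraries lay below both PD2 libraries for 19 of the 36 genes (13.7% of all genes).

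In the late step, between PD14 and PD8, 0 of the 36 genes and 0 of all genes passed (0%), and 0 of the 36 genes had an unadjusted p under 0.05, while 746 of all genes had one. The fitted change was negative for 26 of the 36 genes (47.7% of all genes), with a median of -0.07 against 0.01 for all genes. PD14 lay below PD8 in both methods for 12 of the 36 genes (25.3% of all genes) and above it in both for 3, Srsf1, Srsf10 and Srsf12 (27.4% of all genes). The median of the 36 genes was 0.02 after rRNA depletion, where 17 of them were negative, and -0.18 after poly(A) selection, where 28 were. Over all genes the medians were 0.05 after rRNA depletion and -0.03 after poly(A) selection, and the difference between methods was not tested. TPM were lower at each later stage in both methods for 10 of the 36 genes, against 13% of all genes: Hnrnpa1, Hnrnpa3, Hnrnpab, Hnrnpl, Hnrnpm, Hnrnpr, Hnrnpu, Hnrnpul1, Srsf7 and Tra2b.

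The late change minus the early change passed for 0 of the 36 genes and 0 of all genes (0%). At an unadjusted p under 0.05 it was positive for 3 of the 36, with 1.01 ± 0.292 for Hnrnpf, 1.28 ± 0.382 for Ptbp3 and 0.63 ± 0.198 for Srsf10, and over all genes 566 had such a p. The fitted late change was -0.02 for Hnrnpf, 0.31 for Ptbp3 and 0.10 for Srsf10. For Hnrnpf the methods differed, with PD14 at 85.2% of PD8 after rRNA depletion and 114% after poly(A) selection, and for Ptbp3 PD14 was at 166% of PD8 after rRNA depletion and 93.2% after poly(A) selection. In limma's F test for any change among the 3 groups, 0 of the 36 genes passed, while 1.46% of all genes did. At an unadjusted p under 0.05 there were 15 of the 36 genes and 3223 of the 13332 genes tested.

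**Figure D3:**
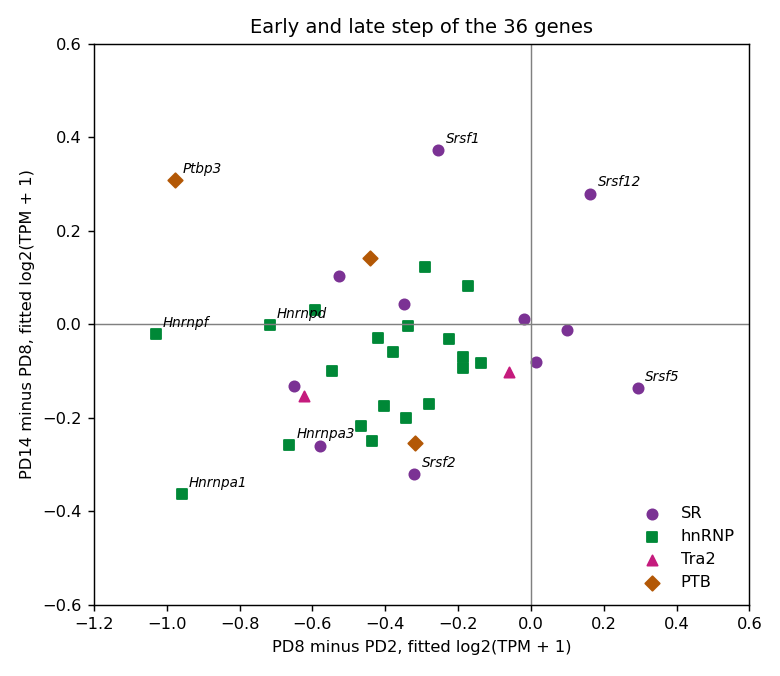
Fitted log2(TPM + 1) change of the early step (PD8 minus PD2, horizontal) and of the late step (PD14 minus PD8, vertical) for the 36 genes, marked by family. The steps share the PD8 libraries. Points spread to -1.03 on the early axis and lie between -0.36 and 0.37 on the late axis.

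For 11 of the 36 genes the level differed between library methods, which cannot be told apart from replicates here. Whether method or replicate lay behind these differences was not tested. Comparing rRNA depletion with poly(A) selection, 9 of the 36 genes were higher after depletion (20.9% of all genes) and 2 were lower (16.4% of all genes). In either direction 37.3% of all genes passed, so the 11 calls of the 36 were not above the background. Ptbp2 was the most different, with a mean of 81.0 TPM after rRNA depletion and 28.1 TPM after poly(A) selection, a log2 difference of 1.496 ± 0.176 and an adjusted p of 0.00665 in limma's test. Srsf12 had a log2 difference of 1.22 ± 0.181, Tra2b of 1.07 ± 0.185 and Ptbp3 of 1.07 ± 0.18. Srsf10 had one of 0.70 ± 0.0934, Hnrnpa2b1 of 0.68 ± 0.189, Hnrnpul1 of 0.66 ± 0.0928, Hnrnpd of 0.58 ± 0.169 and Hnrnpu of 0.46 ± 0.0942. The 2 genes lower after rRNA depletion were Hnrnpf, at -0.57 ± 0.138, and Hnrnpc, at -0.37 ± 0.0956. Hnrnpc no longer passed once each library was rescaled to the same sum, and Hnrnpf, Hnrnpc and Hnrnpd did not pass with quantile normalization. Without either PD8 library 2 of the 36 genes were higher and 0 lower, and without either PD14 library 5 were higher and 0 lower. Without either PD2 library 15 were higher and 1 was lower. The genes passing over the whole table numbered 674 to 758 without a PD8 library, 2152 to 2223 without a PD14 library and 5644 without the rRNA-depleted PD2 library. The median over all genes was 0.04, and it lay between -0.06 and 0.15 when the libraries were scaled in other ways.

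All 3 rRNA-depleted libraries lay above all 3 poly(A) libraries for 10 of the 36 genes (24.7% of all genes), among them Ptbp2, Srsf12 and Tra2b. They lay below all 3 for Hnrnpc, Srsf9 and Tra2a, 3 of the 36 (20.1% of all genes). Ptbp3, Hnrnpd and Hnrnpf passed the test although their methods overlapped across stages, since the fit compares methods within a stage.

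**Figure D4:**
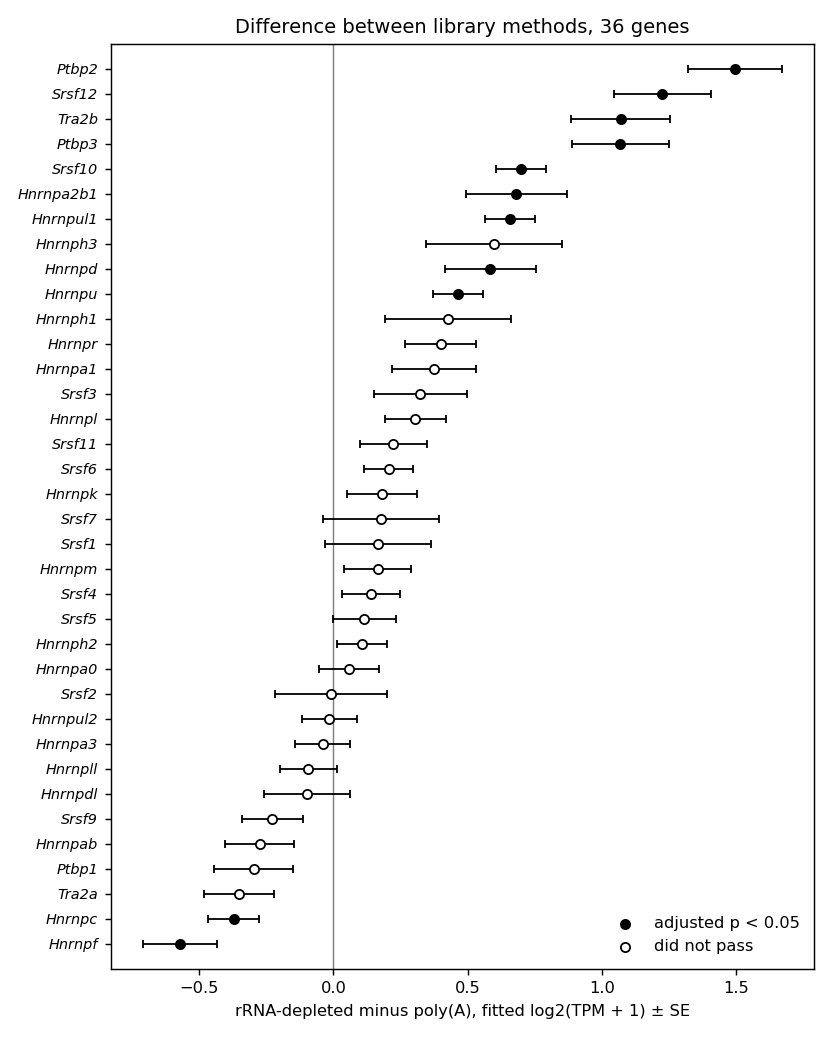
Fitted difference in log2(TPM + 1), rRNA-depleted minus poly(A) (horizontal, ± SE), for the 36 genes in order of size, filled where the adjusted p was under 0.05. Of the filled circles 9 lie right of 0, from 0.46 to 1.496, and those of Hnrnpc and Hnrnpf lie left of it.

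The 2 methods also differed in the size of the change between PD14 and PD2. The median of the 36 genes was -0.31 after rRNA depletion and -0.60 after poly(A) selection, against 0.06 in both for all genes. The poly(A) libraries gave the lower change for 27 of the 36 genes, and for 6672 of the 13332 genes tested. The 4 widest gaps were those of Hnrnph3, Hnrnph1, Srsf7 and Srsf2, at 1.28, 1.21, 1.07 and 0.91 on the log2 scale. With 1 library per method and stage these gaps have no replicate check.

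Transcripts that end in NMD or keep an intron are annotated for many of these genes. GENCODE M21 lists an NMD transcript for 24 of the 36 genes (66.7%), against 27.9% of the 12978 protein-coding genes tested, and for 9 of the 11 SR genes (81.8%). A retained-intron transcript is listed for 27 of the 36 (75%), against 57.5%. The sets were not matched for level or for the number of annotated transcripts. Median TPM per library was 114 to 180 for the 36 genes and 21.4 to 25.9 for all genes tested. Of the 3 genes that fell, Hnrnpa1 has NMD transcripts in the annotation and Hnrnpa3 and Hnrnpf do not. TPM per gene sum over transcripts, so the balance of coding and NMD forms was not analysed here.

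The genes that act on or beside the SR and hnRNP proteins were read from lists. Over all genes tested, 4.77% passed as lower and 6.41% as higher between PD14 and PD2, with a median of 0.06. Of the SR protein kinases and importins, 11 of 12 were tested and 0 passed in either direction between PD14 and PD2, with a median of 0.10. Of the 11, 6 had a positive fitted change and 5 a negative one. The 2 smallest adjusted p-values of limma's test in that list belonged to Tnpo1, an importin of hnRNP A1, at -0.39 ± 0.117 with 0.0930, and Srpk1, the main cytoplasmic SR protein kinase, at -0.37 ± 0.145 with 0.151. Among its positive changes the smallest adjusted p was that of Clk3, another SR protein kinase, at 0.29 ± 0.123 with 0.177 in limma's test. Of 16 genes of NMD and the exon junction complex 0 passed, with a median of -0.13, and 10 were negative and 6 positive in the fit. Magoh, a core subunit of that complex, was at -0.50 ± 0.13 with an adjusted p of 0.0703 in limma's test. Smg6 had the highest change of these genes, at 0.39 ± 0.157 with an adjusted p of 0.164 in limma's test.

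Of the core spliceosome genes, 4 of 55 passed as lower (4.77% of all genes) and 0 as higher (6.41% of all genes). Their median was -0.33, against 0.06 for all genes. With so few calls, the shares of this list and the next are too uncertain to be set apart from that background. The 4 core genes that fell included the Sm-ring genes Snrpf and Snrpd1, at -0.80 ± 0.112 and -0.85 ± 0.143. The others were Lsm8, a subunit of the U6 snRNA ring, at -0.70 ± 0.14, and U2af1, which reads the 3′ splice site, at -0.67 ± 0.142. Of the other splicing regulators 59 of 67 were tested, 3 fell and 1 rose, with a median of -0.29. Syncrip, an hnRNP-like protein formerly called hnRNP Q, fell by 0.79 ± 0.117 on the log2 scale, the Y-box protein gene Ybx1 by 0.84 ± 0.155 and the cold-shock gene Rbm3 by 0.80 ± 0.154. Celf5, of a family best known in brain and muscle, rose by 1.88 ± 0.305, with 13.1 TPM at PD14 against 4.44 TPM at PD2 after rRNA depletion and 17.1 TPM against 2.47 TPM after poly(A) selection.

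Markers of dividing cells and of muscle cells changed between the same groups. Of 20 proliferation genes 18 fell between PD14 and PD2 and 0 rose, with a median of -1.49. Birc5, Aurka and Plk1, which act in mitosis, had changes of -1.90 ± 0.174, -1.69 ± 0.166 and -1.95 ± 0.197, and Mcm5, a subunit of the replicative helicase, had one of -1.76 ± 0.174. Skeletal muscle markers fell too, with 3 of 6 tested, all 3 lower, and Myod1 at 0 TPM at PD8 and PD14. Their summed TPM was 48.3, 12.6 and 5.44 at PD2, PD8 and PD14 after rRNA depletion and 102, 33.0 and 12.5 after poly(A) selection. Macrophage and leukocyte markers summed to 44.3, 13.0 and 17.6 TPM at the 3 stages after rRNA depletion. After poly(A) selection they summed to 58.6, 78.6 and 88.4 TPM, of which Adgre1 alone had 5.69, 26.2 and 34.4 TPM. The sums thus moved in opposite directions. Of the 8 genes, 5 moved in opposite directions between PD14 and PD2, 2 were lower in both methods and 1 was higher in both. Endothelial markers summed to 4.46 to 11.4 TPM and epithelial markers to 2.999 to 11.5 TPM. Of 8 macrophage and leukocyte markers all were tested and 0 passed, and of 6 endothelial and 6 epithelial markers 3 each were tested and 1 each fell. The epithelial splicing regulator Esrp1 was listed at 0 TPM in every library. The part of these cells, and of the share of dividing cells, in the changes of the SR and hnRNP genes was not tested.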

How the data were processed

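RNA-seq of 6 libraries of mouse embryonic fibroblasts was analysed, 1 rRNA-depleted and 1 poly(A) library at each of PD2, PD8 and PD14. The authors deposited TPM per gene symbol in 1 table. The submitters' processing notes name bcl2fastq, cutadapt 1.14, HISAT2 2.0.5, StringTie 1.3.1c and the mm10 build, without the role of each tool. The gene annotation and the handling of reads with several matches are not given in the sources used here. Depth is unknown, so no counting error is given.

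The deposited TPM were used without further scaling as log2(TPM + 1). Genes with at least 1 TPM in at least 2 libraries (13332 of 21988) were fitted with limma 3.58.1 in R 4.3.3, with a term for each group, library method as a block and a mean-variance trend. The fit left 2 residual degrees of freedom and a prior of 3.22. Tests were two-sided, adjusted by Benjamini-Hochberg over all genes tested. The block follows from the labels, where a replicate number marks a library method. Deviations of same-numbered libraries from their group means correlated at 0.752 for PD2 and PD8, 0.664 for PD2 and PD14 and 0.854 for PD8 and PD14. A group has 2 libraries, so the deviations of its libraries are equal and opposite.

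Values in each library were given for every gene that passed a comparison, the 5 largest rises and falls, the 5 highest levels, the 4 widest gaps between methods and named paralogs. Of each list, up to 4 genes with the smallest adjusted p in each direction were named. The members, lists and tests were chosen with earlier results of these data known. Positions, transcript types and pseudogenes are from GENCODE M21 (blastn 2.17.0), promoters from RefSeq. Pseudocounts, filters, scalings, the block, the trend and each library in turn were varied.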

Additional observations from a re-analysis of the deposited data

How the results depend on the processing

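Between PD14 and PD2, 3 of the 36 genes passed as lower and 1490 of all genes passed. Both counts changed little with pseudocounts of 0.1 and 0.5, a minimum of 5 TPM or libraries rescaled to 1000000. Without a filter on low values 1 of the 36 passed, with 404 of all genes. Without the mean-variance trend the counts were 2 of the 36 and 938 of all genes. The count was 5 of the 36 with mitochondrial and histone genes left out, where Hnrnpab and Hnrnpm passed as well and 11.7% of all genes did. It was 4 of the 36 with quantile normalization, where Hnrnpab passed as well and 11.8% of all genes did. Without the replicate block 0 of the 36 and 0 of all genes passed, and 0 of all genes passed for the other pairs of stages and in the F test. For PD8 against PD2, 21 and 17 of all genes passed with pseudocounts of 0.1 and 0.5, and 0 without the filter, without the block, with quantile normalization or without the trend. For the F test 0 of all genes passed without the filter, the block or the trend. The median of the late step minus the early step of the 36 genes was 0.29, and 0.33 with mitochondrial and histone genes left out. In the comparison of methods, 1 of the 36 genes was lower in the rRNA-depleted libraries after rescaling and 1 without mitochondrial and histone genes. With quantile normalization or without the trend 0 were lower. Over the settings that kept all 6 libraries and the block, 4363 to 5078 of all genes passed in either direction.

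Leaving out 1 library at a time left each group of the fit with at least 1 library, and a lone library was assumed to vary like the others. Between PD14 and PD2, 0 to 10 of the 36 genes and 0 to 1793 of all genes passed. For PD8 against PD2 the counts were 0 to 5 and 0 to 626, with medians of the 36 genes of -0.56 to -0.24. For PD14 against PD8 the counts were 0 and 0 to 1, with medians of -0.20 to 0.068. For the late step minus the early step 0 to 3 of all genes passed, and the median was 0.17 to 0.46. The F test passed for 0 to 5 of the 36 genes and 0 to 899 of all genes. Between library methods, 2 to 15 of the 36 genes were higher and 0 to 1 lower in the rRNA-depleted libraries, with 674 to 5644 of all genes passing. Changes between PD14 and PD2 that turned sign, none of which had passed, ranged from -0.25 to 0.074 for Hnrnpa0, from -0.71 to 0.37 for Hnrnph3, from -0.65 to 0.045 for Ptbp2, from -0.29 to 0.52 for Srsf1, from -0.27 to 0.14 for Srsf11, from -0.17 to 0.15 for Srsf9 and from -0.36 to 0.034 for Tra2a. The causes were not tested. Depth is unknown, so what it limits cannot be stated.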
